A study of Homo sapiens with 5 samples.

Results

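The YAP and TEAD pathway was described here through 9 of the 20001 genes with an identifier in a PRO-seq table of human HEK293T cells. The 9 were taken by Ensembl identifier: CCN1 (formerly CYR61, ENSG00000142871), CCN2 (formerly CTGF, ENSG00000118523), ANKRD1 (ENSG00000148677), NUAK2 (ENSG00000163545), LATS2 (ENSG00000150457), AJUBA (ENSG00000129474), FRMD6 (ENSG00000139926), YAP1 (ENSG00000137693) and TEAD1 (ENSG00000187079). The rule lists identifiers and uses no measured value, although earlier results of these data were known when the list was made. PRO-seq labels the RNA that engaged polymerases extend in a run-on reaction, so a count reports engaged polymerase and not RNA that has built up. A count does not by itself give a rate of transcription, and where along a gene the reads lie was not examined. The series, made to derive RNA stability together with RNA-seq of the same cells, held 2 libraries of a line whose landing pad carried the PGK promoter and 3 libraries of a line whose landing pad carried the CAG promoter. A landing pad is a genomic site built to receive inserted DNA. All 5 libraries came from HEK293T, an embryonic kidney cell line with the SV40 large T antigen, and per the labels all were scraped from plates at 70% confluence, without any treatment that differed between the lines. The series describes the lines as monoclonal, and the labels give neither the number of clones nor separate cultures for the replicates. Promoter and clone therefore cannot be told apart, and p-values here rest on a spread between libraries that may be no more than technical.

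YAP1 is a transcriptional coactivator that cannot bind DNA by itself. It is carried to promoters and enhancers by TEAD factors such as TEAD1, and LATS kinases of the Hippo pathway phosphorylate it and keep it out of the nucleus. Cell density, attachment and serum are known inputs to the pathway, and CCN1, CCN2 and ANKRD1 are commonly read as its transcriptional output.

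The TEAD motif was looked up in the promoters because TEAD1 and YAP1 are members and most of the other members are known as their targets. RefSeq windows of 300 bases, 250 before the annotated start and 50 after it (GRCh38.p14), were found for 7 of the 9 members, and not for CCN1 and TEAD1. The letters GGAATG, on either strand, stood in the window of 6 of these 7 members and in 14% of all 35116 windows. They were not in the FRMD6 window. CCN2 had 3 matches, which 0.128% of all windows reached, and ANKRD1 and NUAK2 had 2 each, which 1.37% reached. LATS2 and YAP1 had 1 each. AJUBA has windows for 2 starts, of which 1 held a match. Members are counted as genes, with a match in any of their windows. The 14% counts single windows, so these shares differ in unit. The matches are printed 5′ to 3′ in the direction of the gene, with the motif in capitals, so that the paired sites of CCN2 and the reversed copy in NUAK2 can be seen. Positions count from the annotated start.
CCN2 from -181 to -152 (chr6:131951524-131951553, minus strand): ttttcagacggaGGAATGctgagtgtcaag
CCN2 from -111 to -82 (chr6:131951454-131951483, minus strand): gtggggaGGAATGcgaGGAATGtccctgtt
ANKRD1 from -232 to -203 (chr10:90921290-90921319, minus strand): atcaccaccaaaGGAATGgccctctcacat
ANKRD1 from -140 to -111 (chr10:90921198-90921227, minus strand): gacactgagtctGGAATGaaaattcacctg
NUAK2 from -209 to -180 (chr1:205321925-205321954, minus strand): tcccctagtcccCATTCCtggtgggcgggt
NUAK2 from -30 to -1 (chr1:205321746-205321775, minus strand): ttataacaacttGGAATGctgtgctttact
LATS2 from -3 to 27 (chr13:21061560-21061589, minus strand): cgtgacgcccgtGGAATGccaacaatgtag
AJUBA, downstream start, from -71 to -42 (chr14:22976884-22976913, minus strand): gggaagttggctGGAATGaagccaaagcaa
YAP1 from -174 to -145 (chr11:102110273-102110302, plus strand): cgggagtgtgcaGGAATGtagcaacttgca
The 2 neighbouring copies in CCN2 began at -104 and -95 and ran in the same direction. The AP-1 motif TGANTCA, which reads the same on both strands, was found in 1 member, ANKRD1, at -195, and in 7.71% of all windows. The CArG box bound by SRF was found in none of the members' windows and in 1.29% of all windows. A match describes the letters only, and binding was not measured.

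Nascent read levels of the pathway genes were lower in the CAG line where they differed. Of the 9 members, 8 passed the filter on low counts, and edgeR's quasi-likelihood test called 5 of them lower and 0 higher in the CAG line at an adjusted p under 0.05. The members called lower were CCN1, CCN2, LATS2, FRMD6 and YAP1. NUAK2, TEAD1 and AJUBA were tested and not called, and ANKRD1 was too scarce to test. Over all 13400 tested genes 43.4% were called, 20.7% lower and 22.7% higher, so 5 of 8 lower stood beside a background in which about as many genes rose as fell. The count of members fell to 3 of 8 without PGK replicate 2 (CCN1, CCN2 and LATS2; 40.7% of all tested genes called), without CAG replicate 1 (the same 3 members; 35.6%) and with DESeq2 in place of edgeR (the same 3; 30.3%). All 8 tested members had a log2 fold change (CAG over PGK) below 0, against 50.6% of all tested genes. Their median was -0.32, and that of all tested genes was -0.0046. The levels of the CAG and the PGK libraries did not overlap for 7 of the 8, with the CAG libraries lower in each; over all tested genes this held for 61.2%, 30.4% with lower and 30.9% with higher CAG libraries. In bulk libraries, fewer cells transcribing a gene and less transcription per cell cannot be told apart.

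**Figure D1:**
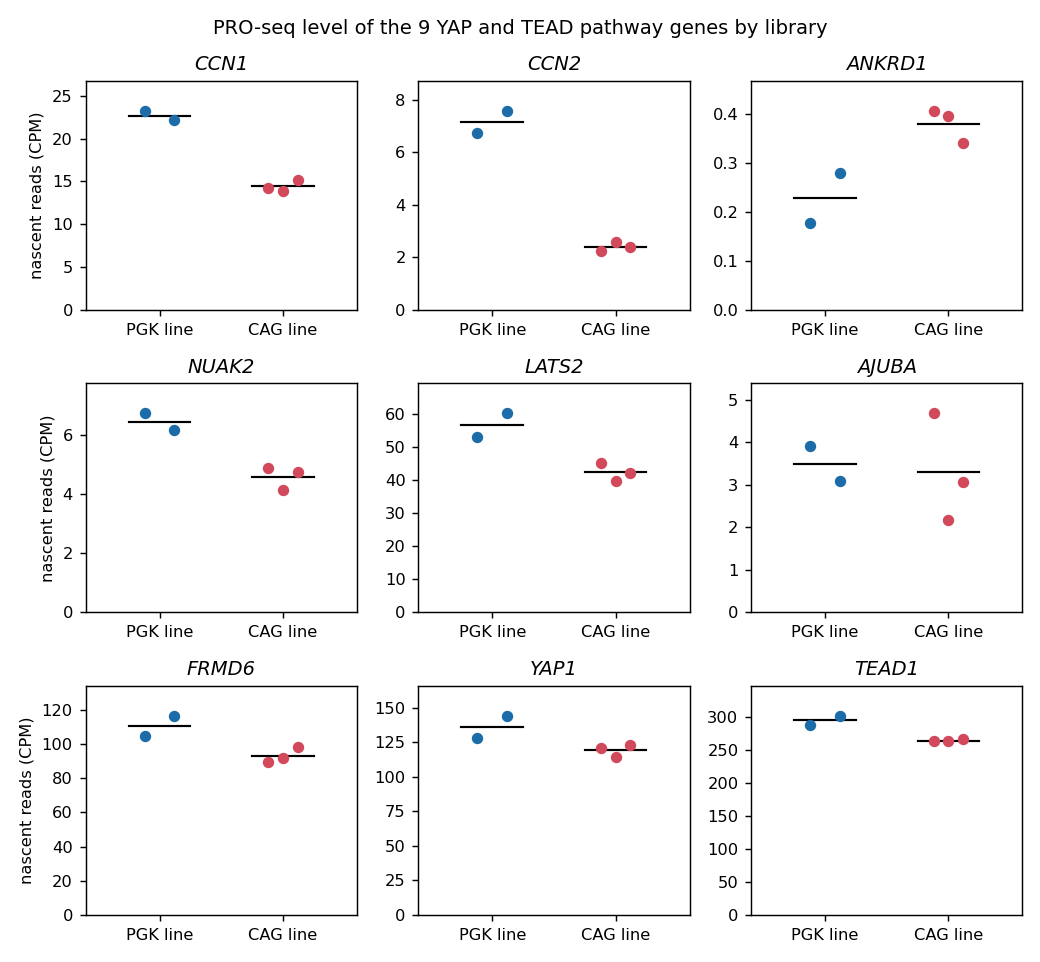
Nascent read level of each of the 9 genes in CPM (depth-scaled counts, y axis from 0, scaled per gene) in the 2 PGK libraries (blue) and the 3 CAG libraries (red); each point is a library and each bar the mean of a line. The CAG points lie below both PGK points for CCN1, CCN2, NUAK2, LATS2, FRMD6, YAP1 and TEAD1, overlap them for AJUBA, and lie above them for ANKRD1, which rests on 8 counts.

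CCN2 showed the largest change of the members. It encodes a secreted matricellular protein, formerly called connective tissue growth factor, and is a standard readout of YAP activity. The PGK libraries held 38 and 27 counts and the CAG libraries 11, 13 and 14. In CPM, which divides a count by the TMM-adjusted size of its library, the level was 6.74 and 7.57 for PGK and 2.24, 2.57 and 2.38 for CAG. The lowest PGK library lay well above the highest CAG library. The mean fell from 7.15 ± 0.589 CPM (SD, n = 2) to 2.40 ± 0.167 CPM (SD, n = 3). This was a log2 fold change of -1.55 with a standard error of 0.29 and an edgeR adjusted p of 9.6e-05. The 95% interval of the change ran from -2.15 to -0.96. The PGK level was thus 2.93 times that of the CAG line, and 0.776% of tested genes had a lower log2 fold change. Counting error alone gave a ratio of CAG to PGK between 0.221 and 0.514. CCN2 was the only member called with a change of at least 2-fold; 1.94% of all tested genes were called and at least 2-fold lower.

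CCN1 changed in the same direction by a smaller amount. It encodes a secreted protein of the same family, formerly named cysteine-rich angiogenic inducer, and is also an early responder to serum. Its 131 and 79 counts in the PGK libraries corresponded to 23.2 and 22.1 CPM. In the CAG libraries it had 70, 70 and 89 counts, or 14.2, 13.8 and 15.1 CPM. Neither line varied by more than 0.13 (log2) among its libraries, and the gap between the lines was 0.54. The log2 fold change was -0.66, with a standard error of 0.15 and an edgeR adjusted p of 0.00103. The mean CCN1 level in the CAG line was thus 63.5% of the PGK mean. Of all tested genes, 5.34% had a lower log2 fold change.

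For ANKRD1 the counts were too few to show a change in either direction. ANKRD1 encodes a nuclear ankyrin-repeat protein best known from cardiac muscle, and is induced by YAP in many epithelial and mesenchymal cells. It had 1 count in each PGK library and 2 counts in each CAG library, 8 in all. The pooled ratio of CAG to PGK was 1.74, with an exact 95% counting interval from 0.312 to 17.7. That interval includes both the fall seen for CCN2 and a rise of many fold, so a difference was not detectable at this depth. It did not pass the filter and was not tested. ANKRD1 thus had 2 TEAD motifs in its window and almost no nascent reads in either line. NUAK2, whose window also held 2, had 133 counts in all.

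NUAK2 and LATS2 are kinases whose genes are also known YAP targets. NUAK2, an AMPK-related kinase, was counted 38 and 22 times in the PGK line and 24, 21 and 28 times in the CAG line. This corresponded to 6.74 and 6.17 CPM in the PGK line and 4.88, 4.15 and 4.76 CPM in the CAG line. The lines did not overlap, yet the log2 fold change of -0.50 had a standard error of 0.26 and an edgeR adjusted p of 0.126. Its 95% interval, -1.03 to 0.036, reached from a 2-fold lower level to no difference. NUAK2 and CCN2 had the same 38 counts in PGK replicate 1, and in the CAG line NUAK2 kept 73 counts over the 3 libraries where CCN2 kept 38.

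LATS2, the kinase that phosphorylates YAP and thereby restrains it, was lower in the CAG line with many more counts behind it. The PGK libraries held 299 and 215 counts (53.0 and 60.3 CPM). The CAG libraries held 223, 201 and 249 counts (45.4, 39.7 and 42.4 CPM). All CAG libraries lay below both PGK libraries, and the gap between the lines, 0.22 on the log2 scale, was slightly wider than the range within either. The mean was 56.6 ± 5.14 CPM (SD, n = 2) in the PGK line and 42.5 ± 2.81 CPM (SD, n = 3) in the CAG line. The log2 fold change was -0.40, with a standard error of 0.10 and an edgeR adjusted p of 0.00211.

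AJUBA and FRMD6 act upstream of YAP in opposite senses. AJUBA is a LIM-domain scaffold that binds LATS kinases and inhibits them, and FRMD6 is a FERM-domain protein related to Drosophila Expanded that promotes Hippo signalling. Nascent AJUBA reads numbered 22 and 11 in the PGK line and 23, 11 and 18 in the CAG line. CAG replicate 1 had the highest level of the 5 libraries, 4.68 CPM, and CAG replicate 2 the lowest, 2.18 CPM, so the lines overlapped throughout. The log2 fold change was -0.12 with an edgeR adjusted p of 0.805, and its 95% interval ran from -0.84 to 0.60. Its sign turned to 0.089 without PGK replicate 1 and to 0.090 without CAG replicate 2.

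FRMD6 was measured with 2492 counts over the 5 libraries. Its level was 105 and 117 CPM in the PGK libraries and 89.7, 91.8 and 98.5 CPM in the CAG libraries. The lines did not overlap, but the gap between them was 0.091 on the log2 scale, narrower than the 0.15 between the PGK libraries. The log2 fold change of -0.24 had a standard error of 0.08 and an edgeR adjusted p of 0.0132. The call was lost without PGK replicate 2 (edgeR adjusted p = 0.098), without CAG replicate 1 (0.0765) and with DESeq2 in place of edgeR (DESeq2 adjusted p = 0.0796). Over the 14 alternatives the adjusted p of FRMD6 ran from 0.00205 to 1, the highest where edgeR tested against a log2 fold change of 0.5.

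YAP1 and TEAD1, the coactivator and its DNA-binding partner, had small differences measured with many counts. YAP1 was counted 724 and 514 times in PGK cells and 593, 578 and 721 times in CAG cells. That was 128 and 144 CPM in the PGK line and 121, 114 and 123 CPM in the CAG line. The gap between the lines, 0.065 on the log2 scale, was less than the 0.17 between the PGK libraries. The log2 fold change was -0.18 ± 0.07 (standard error), and its edgeR adjusted p of 0.0423 lay just under the threshold. It was not called when any of PGK replicate 2, CAG replicate 1, CAG replicate 2 or CAG replicate 3 was left out (edgeR adjusted p = 0.292, 0.0993, 0.146 and 0.0574). The size of the change was smallest without PGK replicate 2, at -0.10. Over the 14 alternatives the adjusted p of YAP1 ran from 0.00392 to 1.

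TEAD1 held the most counts of the members, 6898 over the 5 libraries, and was not called. It stood at 288 and 302 CPM in the PGK libraries and at 263, 263 and 267 CPM in the CAG libraries. The CAG libraries were within 0.0195 of each other on the log2 scale and lay below both PGK libraries. The log2 fold change was -0.16 with a standard error of 0.07 and an edgeR adjusted p of 0.0906. It was called lower only without PGK replicate 1 (log2 fold change -0.19, edgeR adjusted p = 0.0268), over 14 alternatives whose adjusted p reached 1.

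**Figure D2:**
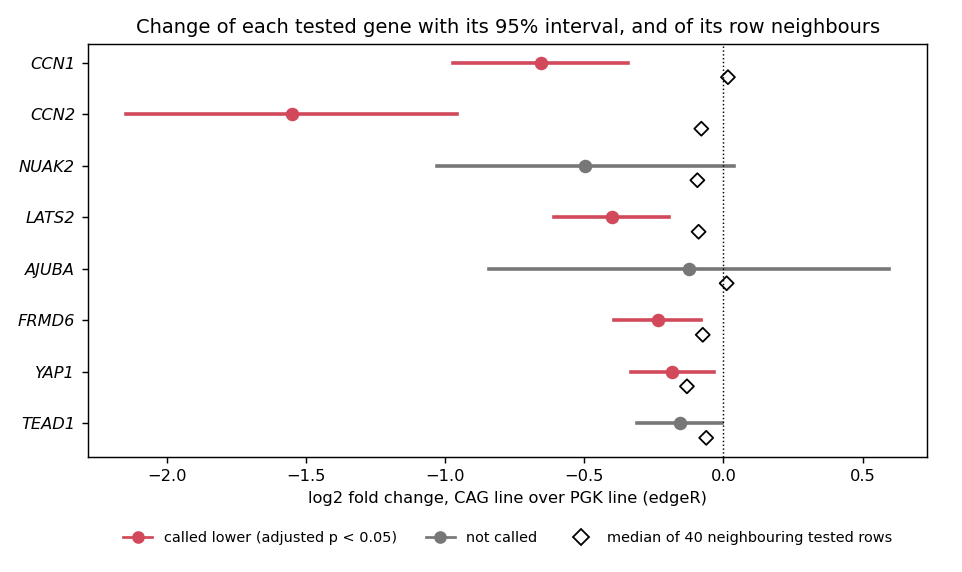
Log2 fold change of the CAG over the PGK line (x axis) for the 8 tested genes, with the 95% interval of edgeR's quasi-likelihood fit (lines) and the median of the 40 tested rows nearest to each gene in the table (open diamonds). Intervals of the 5 called genes (red) lie below 0, and so does that of TEAD1, which was not called. CCN2 lies farthest out at -1.55, and every gene lies below the diamond of its neighbours.

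Each member was also set beside the 20 tested rows on either side of it. What orders the rows is not given in the labels or the table. For the 7 members with a promoter window, row numbers rose with chromosome number, from NUAK2 (chromosome 1, row 1743) to FRMD6 (chromosome 14, row 13133). Whether all rows follow that order was not checked. CCN1 and CCN2 stood apart from their neighbours. None of the 40 rows around CCN1 and none of the 40 around CCN2 had a log2 fold change as low as the gene itself. Over all tested genes only 5.34% were lower than CCN1 and 0.776% lower than CCN2. Few or no lower rows would therefore be found among 40 rows taken anywhere. The neighbours of CCN1 had a median of 0.016 and a lowest value of -0.52, and those of CCN2 a median of -0.080 and a lowest value of -1.22. Relative to its neighbours' median of -0.089, LATS2 stood at -0.31, and 1 of its 40 neighbours was lower. With 50 rows on each side that median was 0.31, and LATS2 stood at -0.72 relative to it, so its distance depended on how many rows were taken.

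YAP1 stood closest to its neighbours. Their median was -0.13, 14 of the 40 were called lower and 1 higher, and 16 were lower than YAP1 itself. Taking the neighbours' median out left -0.053 for YAP1, -0.095 for TEAD1 and -0.16 for FRMD6. For NUAK2 -0.40 was left, and for AJUBA -0.13. All 8 tested members lay below their neighbours' median, by -0.24 at the median. Those neighbour medians lay between -0.13 and 0.016, so this largely restates that all 8 fold changes were below 0. The share of all tested genes below their neighbours' median was not computed. The rows around ANKRD1 were lower in the CAG line as a group, with a median of -0.27 and 22 of 40 called lower.

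Ratios of 2 genes within one library do not depend on how libraries are scaled, and gene length cancels in their difference between lines. CCN1 had 3.42 and 2.89 times the counts of CCN2 in PGK libraries, and in CAG libraries 6.13, 5.22 and 6.17 times. The lines did not overlap, and the mean log2 ratio was 0.89 higher in the CAG line, since CCN2 fell further than CCN1. An exact two-sided permutation test gave p = 0.2 (0.267 after adjustment over the 8 ratios computed), which is the smallest that 2 against 3 libraries allow. This difference between the 2 genes could therefore not pass a threshold of 0.05 in this design.

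Against YAP1 in the same library, CCN2 was lower in the CAG line by -1.35 and CCN1 by -0.46 (differences of mean log2 ratios). LATS2 was lower by -0.22. NUAK2 was lower by -0.30, by -0.15 without PGK replicate 1 and by -0.44 without PGK replicate 2. The lines did not overlap in any of these 4 ratios, but in CPM they did not overlap for 61.2% of all tested genes either. Each reached the smallest p of 0.2 in the exact permutation test, which only restates the lack of overlap. All 4 ratios share YAP1 and were added after seeing the data. FRMD6 differed by -0.056 relative to YAP1, also without overlap, and by -0.019 without CAG replicate 1. The ratio of TEAD1 to YAP1 stayed between 2.09 and 2.30 in all 5 libraries, with overlapping lines and a difference of 0.033 (exact permutation p = 0.6). That of AJUBA to YAP1 overlapped as well (exact permutation p = 1). CCN1, CCN2, NUAK2, LATS2 and, by less, FRMD6 were lower relative to YAP1 in the CAG line. TEAD1 and YAP1 kept a ratio whose spread within each line exceeded the difference between lines. Because the divisor is shared, these ratios largely restate the fold changes of the genes.

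**Figure D3:**
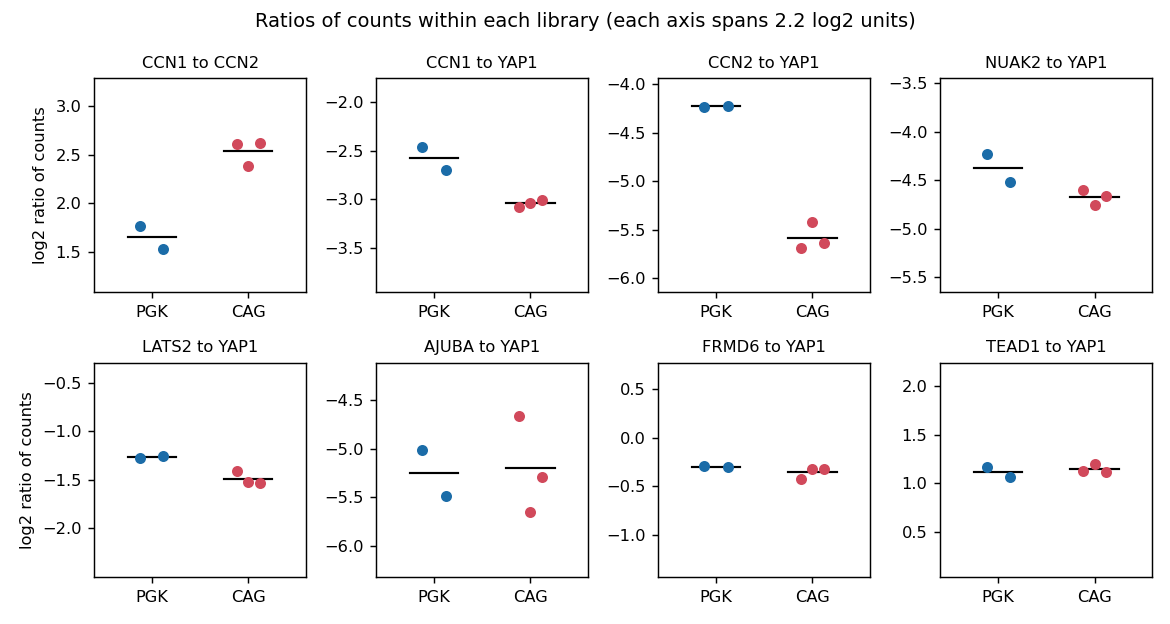
Log2 ratio of raw counts (0.5 added to each) of 2 genes within each library, for the PGK libraries (blue) and the CAG libraries (red); bars are means and each y axis spans the same number of log2 units. CCN1 to CCN2 is higher in every CAG library by 0.89 on average, CCN2 to YAP1 differs by -1.35, and TEAD1 to YAP1 overlaps between the lines.

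Among tested members the standard error of the log2 fold change ran from 0.07 for YAP1, with 3130 counts, to 0.35 for AJUBA, with 85 counts. TEAD1, with 6898 counts, had about the same standard error as YAP1 (0.0746 and 0.0726). When counts were simulated for the same 13400 genes, 2 against 3 libraries, only 200 genes were given a change. Of the genes changed by 0.5 on the log2 scale 65% were called, and of those changed by 1, 84%. In the data 43.4% of tested genes were called, so these shares do not give the chance of a call for the members. Annotated genes of other names overlap CCN2 (CCN2-AS1), YAP1 (YAP1-DT), TEAD1 (TEAD1-AS1) and FRMD6 (FRMD6-AS1 and FRMD6-AS2, among others), LATS2 (RNU4-9P) and AJUBA (LOC124903287) in RefSeq. The strand setting of the counting is not given in the sources used here, so reads of these partners may be included in the values of these members.

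**Figure D4:**
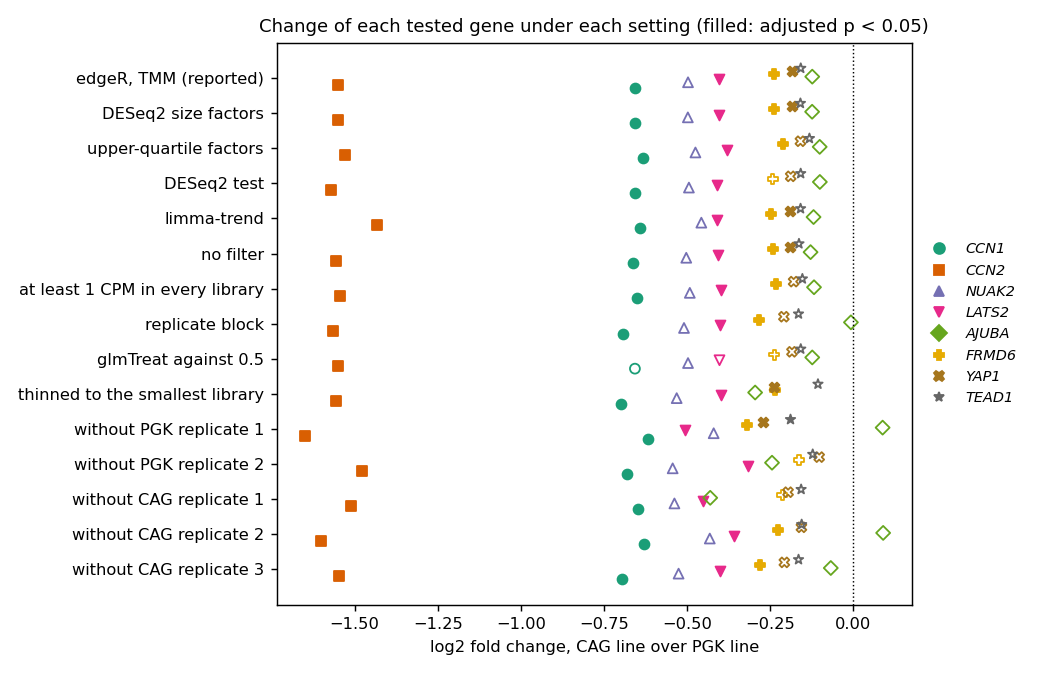
Log2 fold change of the CAG over the PGK line (x axis) for the 8 tested genes under the reported setting and 14 alternatives (rows); a symbol is filled where the adjusted p was under 0.05 and open where it was not. CCN2 is filled in every row between -1.65 and -1.43, CCN1 and LATS2 in every row but the test against 0.5, and only AJUBA crosses 0.

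Depth did not separate the lines: totals were 5582070 and 3712105 counts for PGK replicates 1 and 2 and 4873883, 5003130 and 5864157 for CAG replicates 1 to 3. PGK replicate 2, the shallowest, differed from PGK replicate 1 by more than CAG libraries differed among themselves (chi-square per degree of freedom 4.47, against 1.63 to 1.83). In each of these pairs the difference exceeded the value of about 1 that sampling noise gives. For CCN2, LATS2, FRMD6, YAP1 and TEAD1 this replicate had the highest level of the 5 libraries. With all libraries thinned to 3712105 counts, 5 of the 8 tested members and 5285 of the 13400 tested genes were called.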

How the data were processed

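Nascent RNA was measured by PRO-seq in 5 HEK293T libraries. The authors deposited 1 table of raw counts per Ensembl identifier; per the submitters' processing notes, the tools were featureCounts 2.0.3, HISAT2 2.2.1, Bowtie2 2.5.1, UMI-tools, cutadapt and fastp 0.23.2, and the build was hg19. Not given in the sources used here are the annotation, the counted part of a gene and the strand setting. Of 20019 rows, 18 had no identifier (at most 0.000448% of a library's counts) and were left out. Columns were matched by sample description, and 0 were left unmatched.

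Genes passing edgeR's filterByExpr (minimum count 10, minimum total 15) numbered 13400 and held at least 99.8% of each library's counts. They were scaled by TMM and tested by edgeR's quasi-likelihood F test (edgeR 4.0.16, R 4.3.3), with Benjamini-Hochberg adjustment over all 13400. Standard errors were derived from the fit as the fold change (log2) divided by the root of its F statistic. The test was tried on simulated counts. Alternatives were DESeq2 1.42.0, limma-trend (limma 3.58.1), other scalings and filters, glmTreat, thinning, a replicate block and leaving out libraries.

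All 9 members were named by rule. Their identifiers and symbols came from the list that defines them. The members, lists and tests were chosen with earlier results of these data known. The table and the reference used here (RefSeq, GRCh38.p14) do not pair other identifiers with symbols, so the further lists of Hippo kinases, LATS inhibitors, TEAD factors, YAP targets, CCN genes and SRF targets, their genes, and the markers of HEK293 and other cells were not analysed here. Ratios to YAP1, the counting ratio of ANKRD1 and wider or narrower row neighbourhoods were added after seeing the data.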

Additional observations from a re-analysis of the deposited data

How the results depend on the processing

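Across the 14 alternative fits, CCN2 kept its direction and its call in all 14, CCN1 and LATS2 in 13, FRMD6 in 10 and YAP1 in 5; NUAK2 and AJUBA were called in 0 and TEAD1 in 1. The members called numbered 5, but 3 with DESeq2, 1 with glmTreat (null size 0.5 on the log2 scale), and 3 to 6 with 1 library left out. Of all 13400 tested genes, 5818 were called, 4054 with DESeq2 and 1145 with glmTreat, which tests a stricter hypothesis. Leaving out CAG replicate 1, 2 or 3 gave 4776, 5001 and 5022 called genes, beside 3, 4 and 4 called members. Under glmTreat the calls of CCN1 (log2 fold change -0.66), LATS2 (-0.40), FRMD6 (-0.24) and YAP1 (-0.18) ended. With DESeq2 those of FRMD6 (-0.24) and YAP1 (-0.19) ended, with fold changes close to those of edgeR. Their standard errors were 0.11 and 0.10 with DESeq2, against 0.0758 and 0.0726 with edgeR. That of CCN2 was 0.44 against 0.29, so the printed standard errors and intervals depend on the method. Why the methods differ was not tested. YAP1 was also not called with upper-quartile factors (-0.16), with at least 1 CPM in every library (-0.18), or with the replicate number as a block (-0.21). Leaving out 1 library gave -0.32 to -0.16 for FRMD6, -0.27 to -0.10 for YAP1, -0.19 to -0.12 for TEAD1 and -0.43 to 0.090 for AJUBA, which changed sign without PGK replicate 1 (0.089) and without CAG replicate 2 (0.090).

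The ratio of CCN1 to CCN2 differed by 0.67 with 5 counts added instead of 0.5, which pulls ratios of scarce genes together. With 1 library left out it differed by 0.77 to 1.01. The difference in CCN2 to YAP1 (-1.35) was -1.11 with 5 counts added. The difference in AJUBA to YAP1 (0.047) turned to -0.19 without PGK replicate 2 and -0.22 without CAG replicate 1, with 0.28 the highest with 1 library left out; that in TEAD1 to YAP1 (0.033) turned to -0.018 without PGK replicate 2 and was at most 0.083. Taking out the median of 10 neighbouring rows on each side left -0.29 for LATS2, -0.15 for FRMD6, -0.019 for YAP1 and -0.070 for TEAD1; with 20 rows YAP1 stood at -0.053, and with 50 rows YAP1 stood at -0.081 and LATS2 at -0.72. Replicate numbers are not described as a batch in the labels; libraries with the same number had deviations from their line correlated at 0.038 and -0.068, and the numbers were treated as names only. With the replicate block, 4667 genes and 4 members were called. A lone PGK library was taken to vary as the CAG libraries do. Results for further pathway lists and for ratios to LATS1, WWTR1 and TEAD4 were not run, because those genes' identifiers were not paired with names. ANKRD1, with 8 counts in all, is limited by depth.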
